A study of Mus musculus with 8 samples.

Results

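The group examined here is named immediate early transcription factors, although Dusp1 encodes a phosphatase. It held 10 genes, Fos, Fosb, Jun, Junb, Egr1, Egr3, Ier2, Dusp1, Atf3 and Nr4a1, out of 22180 genes that the arrays measured with a row of 1 gene symbol. They were taken by symbol. Each had 1 such row, so that no choice between rows was needed, and all 10 entered the test. The samples were whole mammary tumors of mice 3 to 4 months old on a congenic FVB/NJ background, all of which carried the MMTV-PyMT transgene, which drives the polyoma middle T antigen in mammary epithelium, and floxed alleles of Mmp14, the gene of a membrane-anchored matrix metalloproteinase. In 4 conditional knockout tumors (cKO) the mice also carried MMTV-Cre, a recombinase under the same mammary promoter, and in 4 tumors of littermates without Cre (called wild type by the submitters, WT) Mmp14 was floxed and not recombined by a transgene. The groups thus differ in the Cre transgene as well as in the targeted gene. MMTV-Cre is meant for the mammary epithelium, but whole tumors do not show in which cells Mmp14 was recombined. The labels call the samples biological replicates and name inguinal and thoracic glands, without saying which gland or which mouse gave which tumor. P-values measure the spread between these tumors.

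Each value below is a log2 signal of 1 array row in 1 tumor, so that a difference of 1 is a doubling of signal, and each difference is cKO minus WT. Array medians lay between 3.64 and 3.71, and any pair of arrays correlated with r between 0.976 and 0.989. Mmp14 itself averaged 7.72 ± 0.22 in cKO and 9.12 ± 0.19 in WT tumors (SD, n = 4 each), and all 4 cKO tumors lay below all 4 WT tumors (difference −1.40, SE 0.13, adjusted p 0.0444 in limma). No row passed, Mmp14 included, when cKO 4 or any 1 of the WT tumors was left out. The luminal epithelial markers that define the labelled tissue were measured for 10 of 10 genes, with summed log2 signals from 92.7 to 96.4 in cKO and from 93.5 to 99.6 in WT tumors. Array signals are known to compress differences of dim genes, and the means of Fosb and Egr3 over the 8 tumors were under 5.

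Immediate early genes are transcribed within minutes of a stimulus without new protein synthesis, from promoters already occupied by the serum response factor, its ternary complex partners and CREB, which growth factor kinases activate. Fos and Jun family proteins pair through leucine zippers to form the AP-1 factor, Egr proteins bind GC-rich sites, and the transcripts decay fast, so that their level reports recent signalling. In solid tissue they are also known to be induced by excision, ischaemia and dissociation. By the submitters' protocol the tissue was snap-frozen, and how long it lay between excision and freezing is not stated in the material used for this work.

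Promoters of 7 members were matched by symbol in a RefSeq table of build GRCm38.p6 and read from 250 bases before to 50 bases after the annotated start. The following 4 are printed because Fos, Jun and Atf3 varied together across the 8 tumors and Nr4a1 had no passing pair with them, as described further on. Capitals mark matches, on either strand, to the CRE core TGACG, the full CRE TGACGTCA, the CRE-like site TGACATCA known from the Jun promoter, the AP-1 site TGANTCA, the Egr site GCGNGGGCG, the TATA sequence TATAAA and the CArG box bound by serum response factor. The full CRE contains the core on both strands, and a match is a description of the letters only.
Fos (chr12:85473640-85473939, plus strand): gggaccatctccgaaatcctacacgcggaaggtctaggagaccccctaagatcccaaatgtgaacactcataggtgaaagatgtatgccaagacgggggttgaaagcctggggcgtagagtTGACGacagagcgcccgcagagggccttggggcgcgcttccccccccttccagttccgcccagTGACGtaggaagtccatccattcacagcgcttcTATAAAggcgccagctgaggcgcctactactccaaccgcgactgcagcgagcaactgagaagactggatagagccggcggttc
Jun (chr4:95052173-95052472, minus strand): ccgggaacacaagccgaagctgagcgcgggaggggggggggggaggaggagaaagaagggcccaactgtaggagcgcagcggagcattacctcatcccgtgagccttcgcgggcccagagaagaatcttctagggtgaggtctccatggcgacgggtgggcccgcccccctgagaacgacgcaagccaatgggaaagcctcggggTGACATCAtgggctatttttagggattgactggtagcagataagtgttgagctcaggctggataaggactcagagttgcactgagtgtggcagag
Atf3 (chr1:191183284-191183583, minus strand): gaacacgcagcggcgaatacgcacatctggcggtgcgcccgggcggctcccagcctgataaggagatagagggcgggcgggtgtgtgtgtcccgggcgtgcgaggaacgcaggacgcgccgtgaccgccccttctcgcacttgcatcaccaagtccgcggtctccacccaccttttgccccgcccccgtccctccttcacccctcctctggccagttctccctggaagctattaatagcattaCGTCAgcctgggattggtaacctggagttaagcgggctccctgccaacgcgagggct
Nr4a1 (chr15:101266596-101266895, plus strand): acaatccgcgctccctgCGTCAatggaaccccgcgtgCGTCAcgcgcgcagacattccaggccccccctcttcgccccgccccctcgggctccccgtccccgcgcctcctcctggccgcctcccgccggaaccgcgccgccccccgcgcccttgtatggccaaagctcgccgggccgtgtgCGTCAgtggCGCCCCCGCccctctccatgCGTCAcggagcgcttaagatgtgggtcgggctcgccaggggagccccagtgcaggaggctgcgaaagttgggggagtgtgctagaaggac

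Of the 7 matched promoters, 6 held the CRE core, namely those of Fos, Fosb, Junb, Dusp1, Atf3 and Nr4a1, against 20.8% of all 32851 promoters of the same length in the table. Fos had 2 such sites, the nearer one 66 bases before the start, and Nr4a1 had 4. The full CRE was found in Dusp1 alone, against 1.79% of all promoters, and the CRE-like site in Jun alone, against 3.62%. Egr sites stood in Fosb and Nr4a1 (5.55% of all promoters). The GC box GGGCGG, searched as well but not marked in capitals, stood in 6 of the 7, against 35.7% of all promoters. Junb was the member without it. The TATA sequence stood in Fos, 33 bases before the start, and in Junb, at the annotated start itself (13.6%). None of these 7 windows held the AP-1 site (7.81%) or a CArG box (1.63%). Sequence outside the windows was not searched, and Egr1, Egr3 and Ier2 were not among the 7 matched members. Whether any member has such a site outside the windows searched was therefore not tested. The CRE core did not separate Nr4a1 from the members that varied together. The members lie on several chromosomes. Junb and Ier2 share chromosome 8 and have 23 annotated genes between them.

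None of the 10 members passed the threshold between cKO and WT tumors, limma's adjusted p of 0.05 over all 23521 rows, which 0.0085% of all rows passed. Fosb, Fos, Dusp1 and Atf3 had the largest differences, with signals in cKO at 42.9% to 61.4% of the WT mean, but in each of them the groups overlapped. Of the 10, 9 were lower in cKO and 1, Egr3, was higher, where 43.5% of all rows were lower and 56.5% higher. The members are not independent observations, since most of their pairs had a Pearson r above 0 across the tumors, as described further on. WT 4 was the highest tumor for 5 of them and WT 1 for 3. The median difference of the members was −0.40, against 0.02 over all rows. At an unadjusted p below 0.05 stood 2 members, Fosb and Dusp1, both lower in cKO, where 9.68% of all rows reached this level, 4.14% lower and 5.54% higher. The groups were free of overlap in 0 of the 10 members, against 5.42% of all rows.

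Among the Fos proteins, which need a Jun partner to bind DNA, Fos had signals of 6.28, 6.51, 5.92 and 5.79 in cKO 1 to cKO 4, against 7.40, 6.43, 5.96 and 8.03 in WT 1 to WT 4. WT 4 and WT 1 stood above every other tumor, while WT 2 and WT 3 lay within the cKO range. Fos averaged 6.13 ± 0.33 in cKO and 6.95 ± 0.93 in WT tumors (SD, n = 4 each), a difference of −0.83 (SE 0.41, 95% confidence interval −1.75 to 0.09, adjusted p 0.560 in limma). The exact permutation p of 0.171 compares with 0.0286, the smallest that 4 against 4 tumors can give. Without WT 4 the difference was −0.47.

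Fosb, whose protein and its truncated form are known for lasting longer than Fos after stimulation, stood at 4.60, 4.26, 4.28 and 4.18 in cKO 1 to cKO 4, against 6.48, 5.59, 4.02 and 6.12 in WT 1 to WT 4. The 4 cKO tumors and WT 3 fell close together, and the other 3 WT tumors lay well above them. The means were 4.33 ± 0.18 in cKO and 5.55 ± 1.09 in WT (SD, n = 4 each), and the difference of −1.22 (SE 0.45, interval −2.24 to −0.20) was the largest of the 10 (adjusted p 0.448 in limma, exact permutation p 0.143). The spread was unequal, with a range of 0.42 among cKO tumors and 2.47 among WT tumors.

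Jun, the main partner of Fos in AP-1, varied less than most members, with 9.005, 9.41, 9.31 and 9.21 in cKO 1 to cKO 4 and 9.55, 9.50, 9.05 and 9.85 in WT 1 to WT 4. Here 3 WT tumors lay above all cKO tumors and WT 3 lay among them. The difference was −0.25 (SE 0.16, adjusted p 0.660 in limma), with −0.13 without WT 4 and −0.40 without WT 3. Junb, which pairs with the same partners and can restrain Jun activity, had 6.83, 7.67, 6.62 and 6.47 in cKO 1 to cKO 4, against 7.76, 6.79, 6.49 and 7.56 in WT 1 to WT 4. Its high tumors came from both groups, cKO 2 beside WT 1 and WT 4, and it differed by −0.25 (SE 0.34, adjusted p 0.846 in limma). That difference was −0.05 without WT 1, −0.11 without WT 4 or without cKO 4, −0.16 without cKO 3, −0.47 without WT 3 and −0.51 without cKO 2.

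Atf3, a stress-induced leucine zipper factor that pairs with Jun proteins, stood at 6.36, 7.26, 6.56 and 5.85 in cKO 1 to cKO 4, against 7.34, 6.96, 6.45 and 8.09 in WT 1 to WT 4. WT 4 was highest and cKO 4 lowest, a 4.73-fold span of signal over the 8 tumors, and cKO 2 lay close to WT 1. The means of 6.51 ± 0.58 in cKO and 7.21 ± 0.69 in WT (SD, n = 4 each) gave a difference of −0.70 (SE 0.37, adjusted p 0.591 in limma, exact permutation p 0.2), and −0.41 without WT 4.

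The Egr genes encode zinc finger factors that act directly after growth factor signalling. Egr1 had 7.18, 7.88, 6.71 and 6.89 in cKO 1 to cKO 4, against 8.03, 7.12, 7.24 and 8.13 in WT 1 to WT 4. The order again put WT 4, WT 1 and cKO 2 on top, and the difference was −0.46 (SE 0.30, adjusted p 0.666 in limma), with −0.30 without WT 4 and −0.70 without cKO 2. Egr3, itself a target of Egr1, was dim, with 4.20, 4.93, 4.11 and 4.06 in cKO 1 to cKO 4 and 4.20, 4.08, 3.92 and 4.62 in WT 1 to WT 4. Only cKO 2 and WT 4 stood apart, and the difference of 0.12 (SE 0.22, adjusted p 0.888 in limma) was −0.08 without cKO 2.

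Dusp1, a nuclear phosphatase that switches off the MAP kinases and so ends the response, had another order of tumors. It stood at 7.32, 7.20, 8.14 and 6.74 in cKO 1 to cKO 4, against 8.30, 7.86, 7.73 and 8.37 in WT 1 to WT 4. Except for cKO 3, every cKO tumor lay below every WT tumor, and cKO 2, high for Egr1 and Junb, was low here. The means of 7.35 ± 0.58 in cKO and 8.06 ± 0.32 in WT (SD, n = 4 each) differed by −0.71 (SE 0.28, interval −1.34 to −0.09, adjusted p 0.470 in limma), with an exact permutation p of 0.0857.

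Ier2, a small nuclear regulator of the same class, was the steadiest member, with 7.17, 7.25, 6.98 and 7.16 in cKO 1 to cKO 4 and 7.48, 7.17, 6.91 and 7.18 in WT 1 to WT 4. It spanned 1.49-fold over the 8 tumors, and the difference was −0.04 (SE 0.12, interval −0.32 to 0.24, adjusted p 0.937 in limma). The orphan nuclear receptor Nr4a1 had 8.11, 8.49, 7.56 and 7.85 in cKO 1 to cKO 4, against 8.06, 8.64, 8.77 and 7.91 in WT 1 to WT 4. WT 3 was the highest tumor for Nr4a1 and the lowest for Fosb, Egr3 and Ier2. Nr4a1 differed by −0.34 (SE 0.24, adjusted p 0.687 in limma), with −0.19 without cKO 3 and −0.20 without WT 3.

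**Figure D1:**
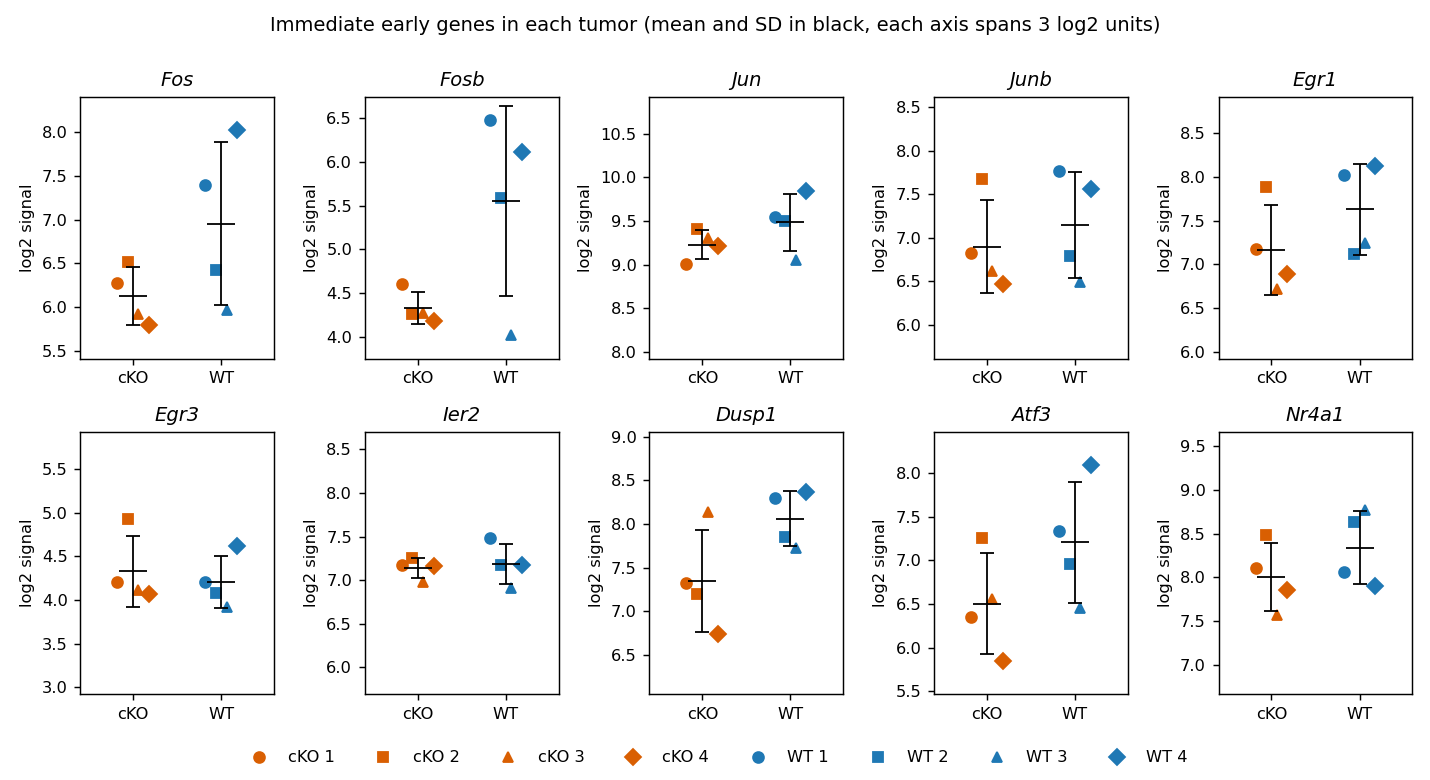
Log2 signal of the 10 genes in each cKO (orange, left) and WT (blue, right) tumor, with 1 symbol shape per replicate number and the mean and SD of each group in black. Every panel spans 3 log2 units, and the groups overlap in all 10, with WT 1 and WT 4 on top for Fos.

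The labels number the arrays, and arrays 1 to 4 and arrays 5 to 8 each held 2 tumors per group, although nothing calls them batches. In the lower-numbered arrays Fos differed by −0.52 and in the higher-numbered ones by −1.14, and Fosb, in the same order, by −1.60 and −0.84. Dusp1 gave −0.82 and −0.61, and Atf3 −0.34 and −1.07. Egr1 differed by −0.04 and −0.88, so that nearly all of its difference came from arrays 5 to 8. In Jun the differences were −0.32 and −0.19, in Junb −0.02 and −0.48, and in Nr4a1 −0.05 and −0.63. The sign differed between the array sets for Egr3, with 0.43 and −0.18, and for Ier2, with −0.12 and 0.03. The other 8 members were lower in cKO in both sets.

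**Figure D2:**
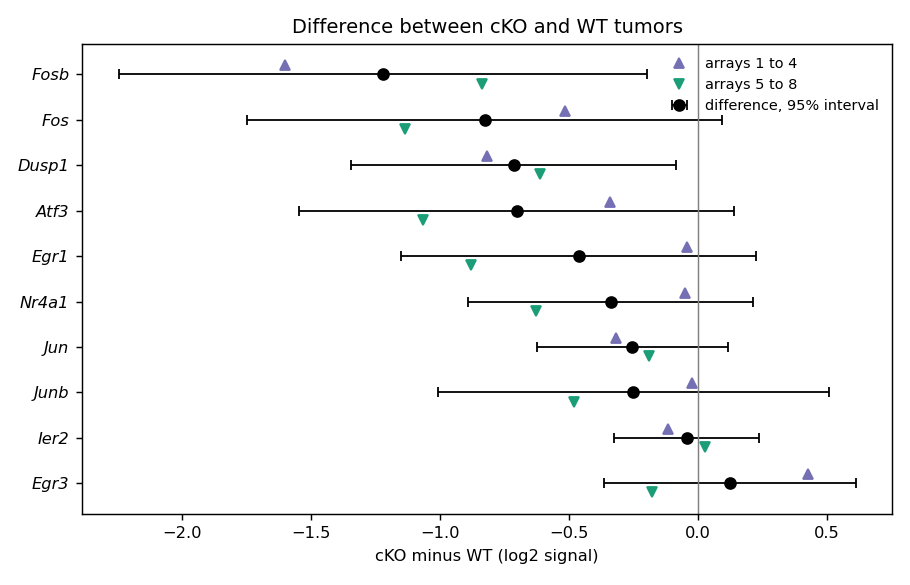
Difference in log2 signal, cKO minus WT, for the 10 genes (black points with 95% confidence intervals from limma, n = 4 each) and the same difference within arrays 1 to 4 (purple) and arrays 5 to 8 (green). The intervals of Fosb and Dusp1 exclude 0 before adjustment over all rows, and no gene passed after it.

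For most members, differences between tumors of 1 group were large beside those of most rows. The SD within groups was 0.78 for Fosb, higher than in 98.6% of all rows, and 0.70 for Fos, higher than in 98.0%. For Atf3 this share was 97.5%, for Junb 96.6%, for Egr1 95.6%, for Dusp1 94.6%, for Nr4a1 92.6% and for Egr3 90.0%, whereas Jun was above 79.7% of rows and Ier2 above 58.0%. Against rows with a mean of at least 5 alone, every share was lower. There it was 97.7% for Fosb, 96.8% for Fos, 85.0% for Egr3, 72.1% for Jun and 48.8% for Ier2. Over the 8 tumors Fos spanned 4.70-fold and Fosb 5.52-fold. WT 4 was the highest tumor for 5 members and WT 1 for 3, while cKO 4 was the lowest for 4 and WT 3 for 3. Among cKO tumors cKO 2 was within the top 3 of the 8 for 7 members.

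The members were then compared with each other across the 8 tumors. Of the 45 pairs, 37 had a Pearson r above 0, with a median of 0.64 and a range from −0.18 to 0.93, whereas single members correlated with all other rows at medians between −0.10 and −0.03. By Pearson's r with exact permutation p-values, adjusted over the 45 pairs by Benjamini-Hochberg, 10 pairs passed 0.05. By Spearman's rho 0 passed, 15 had an unadjusted exact permutation p below 0.05, and the lowest adjusted value was 0.0652. The arrays after a shift to 1 median gave 2 pairs in place of 10. Arrays 1 to 4 and arrays 5 to 8 held 4 tumors each, too few for a correlation of their own.

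Of the 10 passing pairs, 5 held Fos, 4 held Junb and 4 held Atf3. Fos and Atf3 had an r of 0.92 and a rho of 0.90 (exact permutation p 0.000347, adjusted p 0.0156), and an r of 0.84 without the 2 tumors farthest from the median of Fos, WT 1 and WT 4. Fos and Egr1 followed with an r of 0.87 and a rho of 0.88 (exact permutation p 0.000893, adjusted p 0.0201), and an r of 0.73 without those tumors. The highest r belonged to Junb and Egr1, at 0.93 with a rho of 0.74 (exact permutation p 0.00675, adjusted p 0.0388), and it was 0.89 without cKO 2 and WT 1. Egr1 was the 20th most similar row to Junb among 23520, and Atf3 the 53rd most similar row to Fos.

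The remaining 7 passing pairs shared the same adjusted exact permutation p of 0.0388. Fos with Junb (r 0.82), Jun with Atf3 (0.87), Junb with Atf3 (0.83) and Egr1 with Atf3 (0.85) had an r between 0.68 and 0.92 without the tumors farthest from the median. Fos with Jun (0.84) and Junb with Ier2 (0.77) had 0.46 and 0.50 there. These 2 Pearson coefficients thus depended on those tumors, WT 1 and WT 4 for Fos with Jun and cKO 2 and WT 1 for Junb with Ier2. By rank over all 8 tumors, rho was 0.76 for Fos with Jun and 0.90 for Junb with Ier2. The seventh pair was Fos with Fosb (r 0.87), which likewise fell, to 0.57, without WT 1 and WT 4. For Fosb the tumors lay in separate clusters, 3 WT tumors from 5.59 upwards and the other 5 tumors at or below 4.60, and a relation could not be tested within clusters of this size, although its pairs are part of the counts above. With group means removed the median r of the 45 pairs was 0.56, so that the co-variation was also present among tumors of the same genotype.

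Nr4a1 had no passing pair. Its r with the other 9 members lay between −0.18 and 0.16, below 0 for 7 of them, and the lowest exact permutation p was 0.664. Without the 2 tumors farthest from the median of the other gene, r was 0.54 with Fos and 0.64 with Egr1 (both without WT 1 and WT 4), 0.73 with Ier2 (without WT 1 and WT 3) and −0.54 with Egr3 (without cKO 2 and WT 4), so that these 4 coefficients depended on those tumors. With group means removed the 9 coefficients lay between −0.64 with Dusp1 and 0.09 with Egr3. The member nearest to it, Egr1, was the 7594th most similar of 23520 rows. Dusp1 had an r of 0.68 with Atf3 but −0.02 with Egr3 and 0.10 with Ier2, none past the adjusted threshold.

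**Figure D3:**
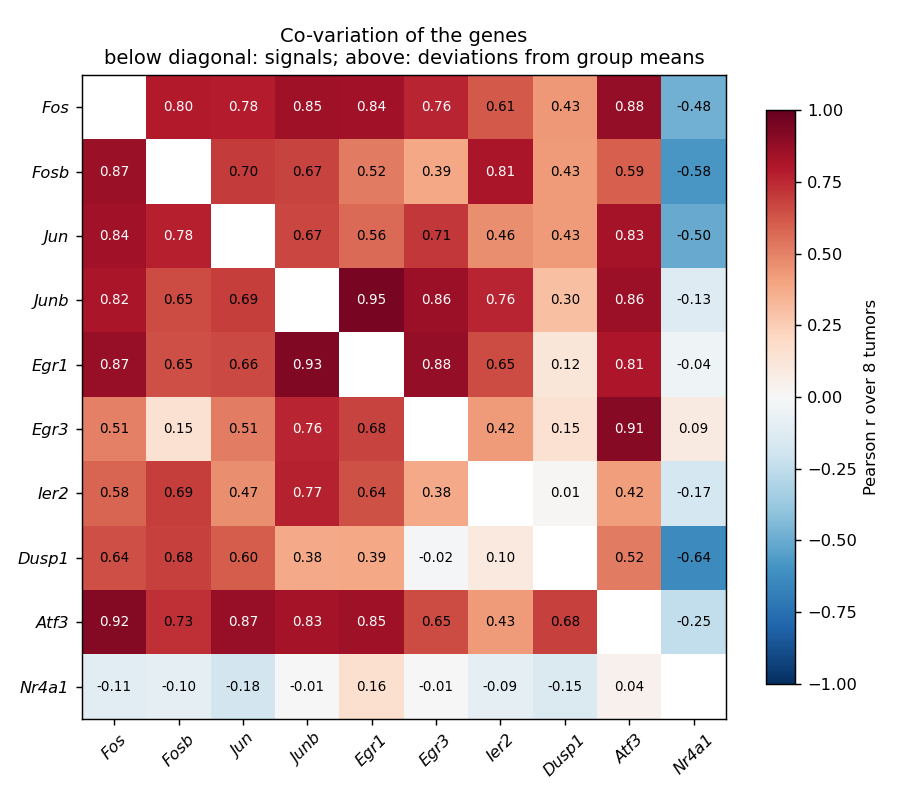
Pearson r between the 10 genes over 8 tumors, from log2 signals below the diagonal and from deviations from the group means above it (red positive, blue negative, colour scale −1 to 1). Fos, Junb, Egr1 and Atf3 correlate with r of at least 0.82 among themselves below the diagonal, and Nr4a1 lies near 0 there.

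A further 27 immediate early genes with a measured row, of 28 listed, were compared in the same way, and Fosl1 is not analysed here. Of these, 23 were lower and 4 higher in cKO, 0 passed in limma, and 5 had an unadjusted p below 0.05, 4 of them lower. Over all rows 43.5% were lower, 9.68% had such a p, and 4.14% had it and were lower. The median difference was −0.17. Btg2, an antiproliferative gene, differed by −0.55 (SE 0.22, adjusted p 0.483 in limma) and the endothelial and lymphoid factor Klf2 by −0.34 (SE 0.13, adjusted p 0.463). Egr4, the dim relative of Egr1, was higher by 0.25 (SE 0.08, adjusted p 0.394) with signals of 3.66 ± 0.11 in cKO and 3.40 ± 0.06 in WT (SD, n = 4 each), close to the array median. As a description, these genes had a median r of 0.76 with the mean deviation of the 10 members, 11 of 27 above 0.8, against a median of −0.10 and 2.21% above 0.8 over all other rows.

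The factors that act upstream and beside the members showed no call. Of 8 measured genes of serum response factor, its partners and CREB, 3 were higher and 5 lower, with Elk1 at 0.27 (SE 0.08, adjusted p 0.356 in limma), Creb1 at 0.23 (SE 0.08, adjusted p 0.442) and Elk4 at −0.25 (SE 0.13, adjusted p 0.586). Elk1 and Creb1 encode activators of immediate early promoters, and in both the groups did not overlap, as in 5.42% of all rows. Of 12 feedback genes of the ERK pathway 5 were higher and 7 lower, with a median of −0.02. The inhibitor Spred2 stood at −0.23 and the phosphatases Dusp4 and Dusp6 at −0.41 and 0.27, none past the threshold. AP-1 and Egr partner genes were lower in 9 of 11, with a median of −0.14. Among them the Egr corepressor Nab1 stood at −0.27, Batf2 at −0.22 and the Jun dimerization protein Jdp2 at −0.32. Of 9 proteases and inhibitors known as AP-1 targets, 5 were higher, among them the collagenase Mmp13 by 1.52 (SE 0.47, adjusted p 0.364 in limma) and the stromelysin Mmp10 by 0.42, with Timp1 at −0.44, and 0 passed.

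By the similarity of their pattern to the mean deviation of the members over the 8 tumors, 10 genes were named from all rows with a mean of at least 5. F3, the tissue factor that starts blood clotting and is itself known to be induced early, had an r of 0.98. It was followed by the adhesion scaffold Bcar1 (0.971), the adaptor Nck2 (0.965) and the phospholipase Plcb3 (0.963). Srf, the serum response factor, came next with 0.962, at signals of 6.99, 7.19, 6.98 and 7.01 in cKO 1 to cKO 4, against 7.29, 7.18, 7.005 and 7.42 in WT 1 to WT 4. Slc2a1, the glucose transporter, had 0.958. Zc3h12a, which degrades inflammatory transcripts, Rusc2, the actin-branching factor Whamm and Cd47, the signal that restrains phagocytosis, all had 0.95. These values are descriptions over 8 tumors, and none of the 10 genes passed between cKO and WT.

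Lists that can move with handling, oxygen supply or cell content were set beside the members. A list score averages, over the genes of a list, how far a tumor lies above or below the 8-tumor mean of each gene (log2). The 10 members had scores of −0.24, 0.14, −0.32 and −0.52 in cKO 1 to cKO 4, against 0.52, 0.07, −0.29 and 0.64 in WT 1 to WT 4. Hypoxia and glycolysis genes had −0.26, 0.58, −0.37 and −0.32 in cKO 1 to cKO 4, against 0.26, −0.26, −0.29 and 0.66 in WT 1 to WT 4. The same 3 tumors, WT 4, WT 1 and cKO 2, were highest on both. For heat shock genes the scores were −0.01, 0.13, −0.25 and −0.10 in cKO, against 0.32, −0.0008, −0.18 and 0.10 in WT tumors, with WT 1, cKO 2 and WT 4 on top. Luminal epithelial markers had −0.09, 0.13, −0.24 and −0.20 in cKO, against 0.16, −0.07, −0.15 and 0.45 in WT tumors, again with those 3 tumors on top. In whole tumors fewer cells of a type and less RNA per cell cannot be told apart.

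**Figure D4:**
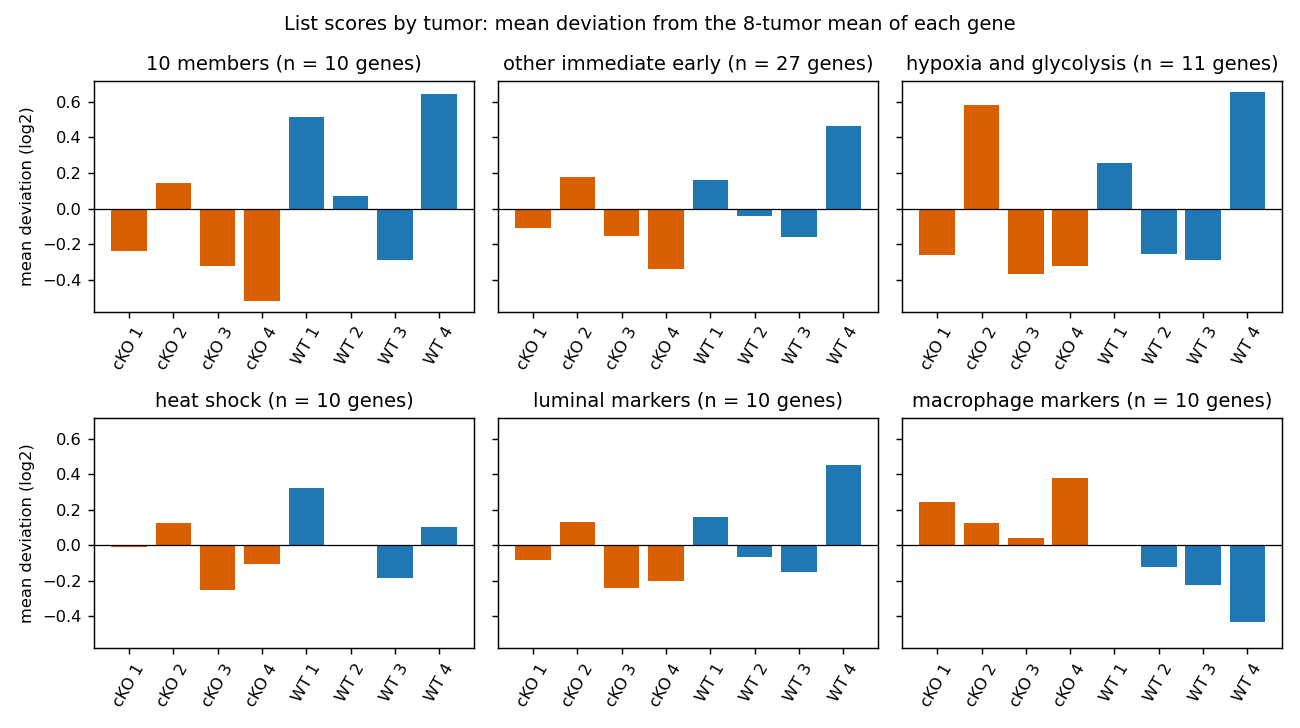
Mean deviation (log2) of 6 gene lists in each cKO (orange, left) and WT (blue, right) tumor from the 8-tumor mean of each gene. The 10 members, the hypoxia and glycolysis list and the luminal markers are all highest in WT 4, and cKO 2 is the highest cKO tumor on these lists.

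Fos, as a single gene, was correlated with the scores of 18 lists, with exact permutation p-values adjusted over the 18. Luminal markers gave an r of 0.96 and a rho of 0.98 (raw exact permutation p 0.000124 and 0.000397, adjusted p 0.00223 and 0.00685), with 0.88 without WT 1 and WT 4 and 0.95 with group means removed. The other immediate early genes gave an r of 0.93 and a rho of 0.95 (raw exact permutation p 0.000273 and 0.00114, adjusted p 0.00246 and 0.00685), with 0.89 without those tumors. For hypoxia and glycolysis the r of 0.81 did not pass (raw exact permutation p 0.0180, adjusted p 0.0809) and the rho of 0.95 did (raw exact permutation p 0.00114, adjusted p 0.00685), with an r of 0.67 without WT 1 and WT 4. Heat shock genes gave an r of 0.76 (raw exact permutation p 0.0281, adjusted p 0.0809) and a rho of 0.86 (raw exact permutation p 0.0107, adjusted p 0.0321), with an r of 0.85 without those tumors. Whether oxygen supply, the time before freezing or epithelial content had a part in the levels of Fos was not tested.

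Other lists passed by 1 of the measures only. Serum response factor and its partners gave an r of 0.84 (exact permutation, adjusted p 0.0478) and a rho of 0.74 (adjusted p 0.118), and the r was 0.36 without WT 1 and WT 4, on which it rested. Basal epithelial markers gave an r of 0.67 (exact permutation, adjusted p 0.152) and a rho of 0.90 (adjusted p 0.0164). T cell markers ran against Fos, with an r of −0.77 (exact permutation, adjusted p 0.0809) and a rho of −0.93 (adjusted p 0.0100). Their mean signals, 3.70 to 4.10 in cKO and 3.53 to 3.95 in WT tumors, lay close to the array median. None of the other 11 lists passed with either coefficient, among them fibroblast (r 0.21), endothelial (0.17) and macrophage markers (−0.62, summed log2 signals 64.4 to 67.7 in cKO and 59.6 to 63.9 in WT tumors).

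Within these lists no gene passed between cKO and WT in limma. Of 10 measured heat shock genes 5 were lower, with the chaperone partner Bag3 at −0.34 (SE 0.10, adjusted p 0.348) and, as in 5.42% of all rows, without overlap between the groups, and the chaperones Hspe1 at 0.22 and Hsp90aa1 at 0.15. The inducible Hsp70 genes Hspa1a and Hspa1b, named after their values were seen, stood at −0.87 and −0.66 (adjusted p 0.591 and 0.612) and are near-identical copies whose signals cannot be fully told apart. Of 11 hypoxia and glycolysis genes 7 were lower, with Slc2a1 at −0.57, Ndrg1 at −0.48 and Ldha at −0.34. Among 10 luminal markers 8 were lower, with Krt19 at −1.15 (SE 0.42, adjusted p 0.446), Cdh1 at −0.21 and Elf5 at −0.24. Ddit3, a stress-response factor related to Atf3, differed by −0.31, and Herpud1 and Vldlr of the same stress list by −0.31 and −0.26.

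Markers of the other cells of a tumor differed between the groups in level, again with 0 genes past the threshold. Macrophage markers were higher in cKO for 9 of 10 genes, 7 of them at an unadjusted p below 0.05 (5.54% of all rows were higher at that level). Ms4a7 (1.01), Adgre1 (0.68) and Aif1 (0.60) were among 4 of the 10 without overlap between the groups, against 5.42% of all rows. Fibroblast markers were lower for 10 of 10, 5 at that level (4.14% of all rows were lower there), among them the collagen gene Col1a1 (−1.36), Postn (−1.26) and the growth factor receptor Pdgfra (−0.71). Their scores were 0.05, −0.66, −1.64 and 0.48 in cKO 1 to cKO 4, against 0.52, 0.68, 0.47 and 0.10 in WT 1 to WT 4. cKO 4 thus lay within the WT range. The lowest scores were those of cKO 3 and cKO 2, tumors that lay far apart for Junb and Egr1. Endothelial markers were lower for 10 of 10, 2 at that level, with the factor Erg at −0.59 and the receptors Flt1 and Kdr at −0.66 and −0.20. Endothelial scores were 0.06, −0.40, −0.54 and 0.19 in cKO 1 to cKO 4, against 0.32, 0.18, 0.20 and −0.02 in WT 1 to WT 4. Of 7 measured basal markers 5 were lower, and of 6 T cell markers 4 were higher. Neutrophil markers were higher in 4 of 8, B cell markers in 3 of 5, adipocyte markers in 4 of 6 and skeletal muscle markers in 3 of 7. The part of these cells in the differences of the 10 members was not tested.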

How the data were processed

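RNA of 8 whole tumors was measured on Affymetrix arrays from 400 ng of RNA each. The deposited values are log2 signals, and the submitters' processing notes name RMA and limma, without version or settings. The scale was checked on the values, 0.853 to 12.9. Of 41345 rows, 23521 had 1 gene symbol, updated by gene identifier for 23328 from RefSeq GRCm38.p6; 1814 had several and 16010 are unnamed here.

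A moderated linear model without covariates (limma 3.58.1 under R 4.3.3; functions lmFit and eBayes) gave two-sided tests of all 23521 rows, with Benjamini-Hochberg adjustment over all rows and a threshold of 0.05. The fit was tested on simulated data. Permutation tests were exact and two-sided. The members, lists and alternatives were chosen with earlier results of these data known. Named genes are the members, Mmp14, up to 3 genes per list with the smallest p, and the 10 rows most similar to the members; others are said to be named after their values were seen. No depth applies to arrays, and their number limits the precision.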

Additional observations from a re-analysis of the deposited data

Results flagged for a closer look

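Egr3 in cKO 2 had a log2 signal of 4.93, against 4.06 to 4.20 in the other 3 cKO tumors, a gap of 83.8% of the range of that group. It was the only one of 20 groups of 4 tumors, 2 for each of the 10 members, with a tumor this far from the rest, and chance gives about 1 such group in 20. The same tumor was the highest cKO tumor for Fos, Jun, Junb, Egr1, Ier2, Atf3 and Nr4a1.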

How the results depend on the processing

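No member passed the threshold in any of 15 alternative fits (the lowest adjusted p was 0.141), and no count of the 18 supporting lists left 0. Of 148 member differences under these fits, 145 kept their direction. Fits that changed only the rows tested, the variance model or the blocks could not change a difference, since the groups were balanced. Their share of this count therefore says nothing about the directions. Only the fits with other normalization or with 1 tumor left out could alter them. The exceptions were Egr3, which ran from −0.0782 (without cKO 2) to 0.26 with 1 tumor left out, and Ier2, from −0.14 to 0.05, with 0.00785 without cKO 3 and 0.0545 without WT 1. Leaving out 1 tumor, the median member difference ran from −0.59 to −0.30. The number of rows past the threshold, 2, was 8 over all rows of the table, 0 with the replicate number as a block, 1 with the array number as a block, and 0 to 3 with 1 tumor left out. Deviations of same-numbered tumors correlated between −0.245 and 0.294, and 2 of 8 tumors correlated best with their own number. These values cannot decide whether the replicate numbers pair the tumors, since the labels do not say what the numbers stand for. The median r of the pairs was 0.69 by Spearman's rho, 0.56 from deviations from group means and 0.56 to 0.68 with 1 tumor left out, and the pairs past the threshold, 10, were 2 after a median shift and 0 by Spearman's rho, the cause of which was not tested. A choice among rows of a gene had no alternative, since each member had 1 row.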

Other observations

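Nr4a2 and Nr4a3, the relatives of Nr4a1, were named after their values were seen. Nr4a2 had log2 signals of 5.82, 4.96, 8.06 and 6.79 in cKO 1 to cKO 4, against 6.22, 6.62, 6.74 and 6.33 in WT 1 to WT 4. Its lowest tumor was cKO 2 and its highest cKO 3, the reverse of Nr4a1 among the cKO tumors. Nr4a3 likewise was lowest in cKO 2, at 3.22, and highest in cKO 3, at 4.69. As descriptions, their r with the mean deviation of the 10 members was −0.40 and −0.25, where the 27 other immediate early genes ranged from −0.60 to 0.95 with a median of 0.76.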
